A study of Mus musculus with 6 samples.

Results

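Genes of myelin and of the oligodendrocyte lineage, the cells that make it, form a set of 34, chosen by name for their known place in the lineage, of 56923 genes listed in the count tables. The set, and the further gene lists used below, were chosen with earlier results of these data known. All 34 matched 1 gene each and all passed the filter on low counts, with a mean level of at least 1 CPM (fragments of the gene per 1000000 fragments in the library). They were divided into 16 genes of myelin structure and membrane, 8 genes for lipid, metabolic, iron and pH functions of oligodendrocytes, 5 lineage transcription factors, 2 precursor genes and 3 genes of committed and newly formed oligodendrocytes.

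Oligodendrocytes wrap axons of the brain in myelin, a stack of compacted membrane that speeds conduction and feeds the axon. They arise from precursor cells that carry the growth factor receptor PDGFRA and the proteoglycan NG2 (*Cspg4*). These cells pass through a committed stage marked by *Gpr17* and then switch on the genes of the myelin sheath under the transcription factors OLIG2, SOX10 and MYRF. In the cortex, precursors persist in adult animals and myelin is sparse beside that of the white matter beneath it, so a cortical sample holds both ends of the lineage.

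Polyadenylated RNA was sequenced from mouse prefrontal cortex in 3 samples labelled Pla2g4e KO and 3 labelled wild type (WT). Per the methods of the study, the constitutive KO mice were on C57BL/6N-A tm1Brd and carried the EUCOMM allele Pla2g4e tm2a (Hmgu/BayMmucd), in which splicing into a LacZ gene trap is predicted to leave no functional product, in all cells rather than in 1 cell type. *Pla2g4e* encodes a calcium-dependent phospholipase that makes N-acylphosphatidylethanolamines, precursors of endocannabinoid-like lipids. The comparison of KO with WT asks how cortical transcription differs without this enzyme. Age and sex of these animals are not given in the sources used here, nor whether each library came from a separate mouse, so p-values measure the spread between these samples.

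Library totals ranged from 11792463 to 14594230 fragments, and mitochondrial genes took 6.13% to 7.41% of them. *Pla2g4e* transcript was counted in every library, at 5.95, 8.12 and 7.97 CPM in KO replicates 1 to 3 and at 7.84, 11.3 and 13.2 CPM in the libraries labelled WT replicates 1 to 3. The first of these WT libraries was inside the range of the KO libraries, below KO replicates 2 and 3. This count therefore checks neither its label nor theirs, and directions follow the labels. *Xist* stood at 1387 CPM in KO replicate 1 and at 969 CPM in WT replicate 1 as labelled. In the other 4 libraries it was near 0 and Y-linked genes were counted, so each group held 1 library of the first kind. Cortical neurons were well represented, with the vesicular glutamate transporter *Slc17a7* at 1161 to 1628 CPM.

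The 34 genes together took 0.281%, 0.311% and 0.318% of the fragments in KO replicates 1 to 3. In the libraries labelled WT replicates 1 to 3 they took 0.234%, 0.243% and 0.349%. The WT libraries thus held both the lowest shares and the highest one, with the KO libraries between them. In bulk tissue, fewer oligodendrocytes and less RNA per oligodendrocyte cannot be told apart.

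*Mbp*, which encodes myelin basic protein, the protein that seals the inner faces of the myelin membrane, was the most abundant member. It made up 35.9% to 39.2% of the members' fragments in a library. Per kilobase of annotated exon its mean level over the 6 libraries was 129 FPKM (CPM per 1000 bases). *Mobp*, which encodes another small basic myelin protein, was next at 52.2 FPKM, followed by *Car2* (carbonic anhydrase 2) at 45.2 FPKM and *Qdpr* (a pterin reductase) at 45.1 FPKM. The neighbours *Car2* and *Qdpr* did not differ beyond their spread over libraries. At the other end stood *Enpp6*, a choline phosphodiesterase of newly forming oligodendrocytes, at 0.654 FPKM, *Aspa*, which breaks down N-acetylaspartate for myelin lipid synthesis, at 1.74 FPKM, and *Cspg4* at 2.19 FPKM. The precursor receptor *Pdgfra* had a level of 4.96 FPKM, below *Gpr17* at 8.11 FPKM. Exon length is the union over all annotated transcripts, which lowers the FPKM of genes with long alternative exons such as *Mbp*.

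**Figure D1:**
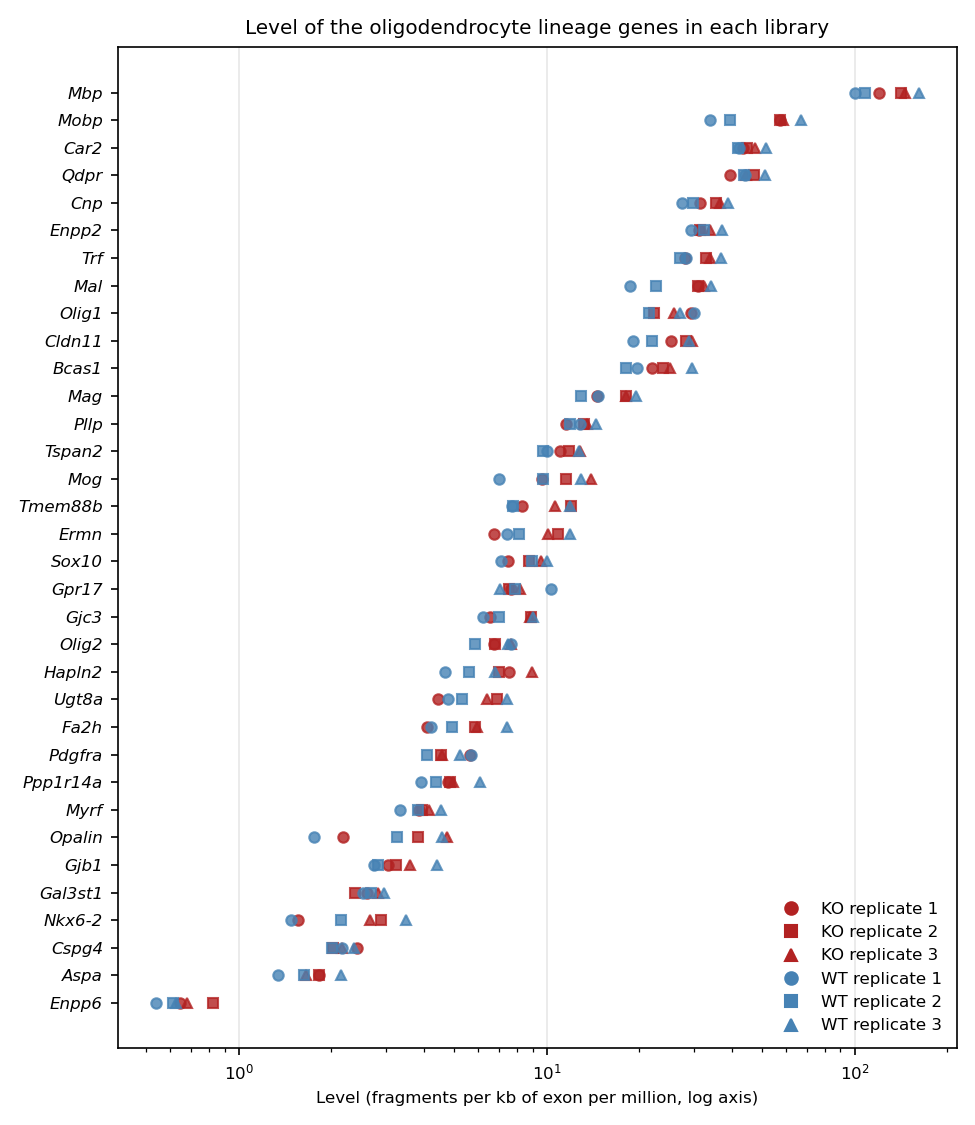
Level of each of the 34 genes in each library, in FPKM on a log axis, ordered by the 6-library mean. KO libraries are red and WT libraries blue, with 1 point per library, and *Mbp* at a mean of 129 FPKM stands above *Mobp* at 52.2 FPKM.

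Set against WT, none of the 34 genes in KO passed the threshold of 0.05 on p adjusted over all genes, by limma-voom, edgeR's quasi-likelihood test or DESeq2. In limma-voom and edgeR no other gene passed either (0.0% of 19084 in limma-voom), and in DESeq2 only *Sst*, the gene of the neuropeptide somatostatin and no member, did. In limma-voom the lowest adjusted p among the members was 0.635. Before adjustment, 2 of the 34 (5.88%) had p under 0.05, both higher in KO, against 7.82% of all genes tested (4.38% higher and 3.44% lower in KO). The members' share was thus below the background in either direction and, at 2 genes, slightly above that for higher genes alone. No overlap between KO and WT libraries was found for 2 members (5.88%), both higher in KO, against 13.9% of all genes at a mean of 1 CPM or more and 6.98% in that direction. The median log2 fold change was 0.04 over the 34 genes and 0.01 over all genes tested. Of the members, 24 had a fold change above 0 (70.6%), against 51.9% of all genes.

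These counts rested on single libraries. Without WT replicate 3, 11 of 34 genes had p under 0.05 before adjustment, all higher in KO, where 5.43% of all genes passed in that direction. The 11 were *Bcas1*, *Cldn11*, *Cnp*, *Hapln2*, *Mag*, *Mal*, *Mbp*, *Mobp*, *Mog*, *Tmem88b* and *Tspan2*, and the median log2 fold change of the members was then 0.23. Without KO replicate 1 the count was 5, against 2.74% of all genes. It was 1, *Hapln2*, without any 1 of the remaining libraries, against 4.29% (KO replicate 2), 4.9% (KO replicate 3), 3.06% (the library labelled WT replicate 1) and 2.29% (WT replicate 2). None passed the adjusted threshold in any of these fits. Without the library labelled WT replicate 1 the median was 0.00 and 17 of the 34 genes were higher in KO, and without WT replicate 2 the median was -0.02 and 15 were higher. The direction for the group as a whole was thus not stable to the removal of 1 WT library. Among other settings, edgeR gave 1 such gene (background 4.58%), DESeq2 1 (2.3%), no filter beyond 1 fragment 4 (3.94%), a covariate for Y-linked expression 4 (5.96%) and scaling by library totals alone 3 (5.61%), all higher in KO. Without both libraries with *Xist* the count was 1 (2.36%).

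**Figure D2:**
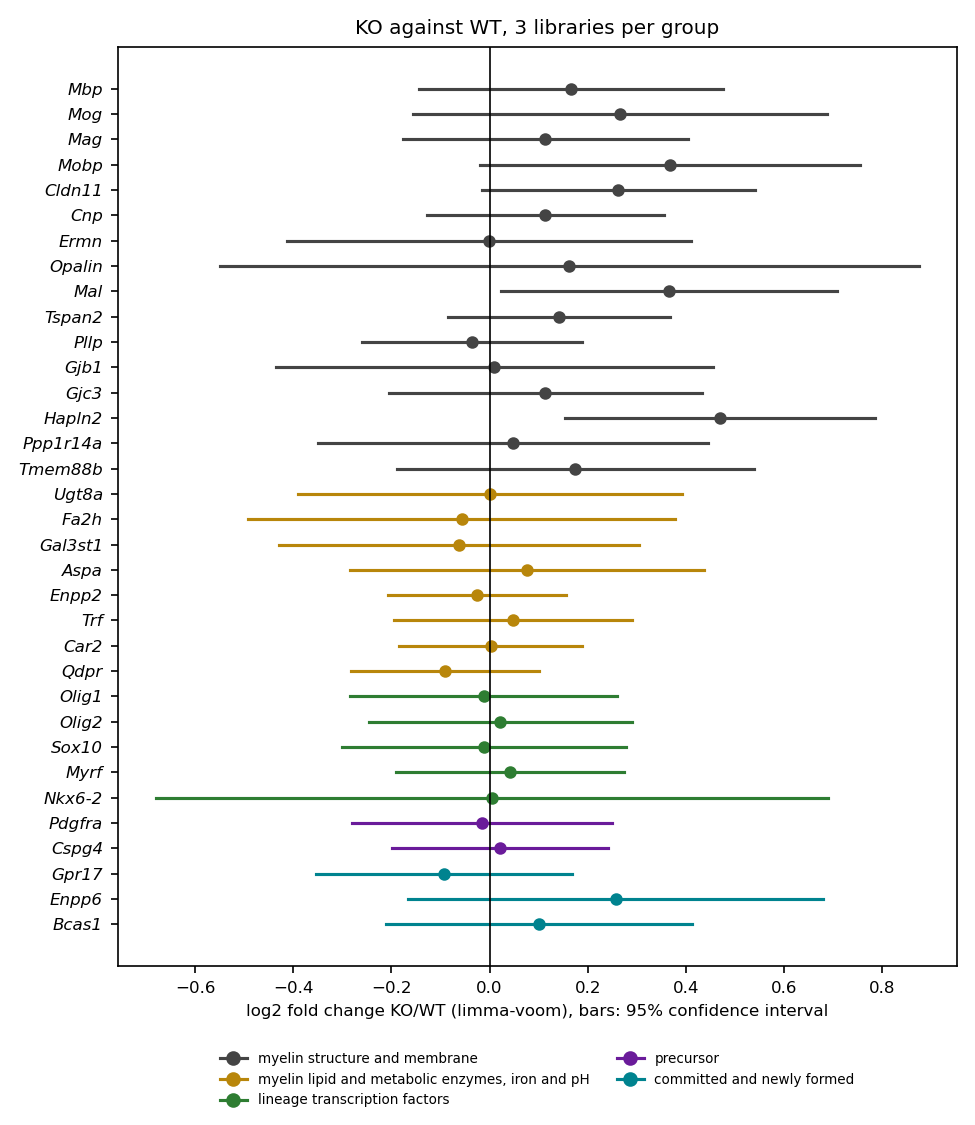
Log2 fold change of KO against WT for the 34 genes in limma-voom, with 3 libraries per group. Points are estimates, bars are 95% confidence intervals and colours mark the functional groups, and the intervals of *Hapln2* (0.15 to 0.79) and *Mal* (0.02 to 0.71) do not cross 0.

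The gene of lowest p-value was *Hapln2* (ENSMUSG00000004894.11, minus strand of chromosome 3, 87929057 to 87934890 in GRCm39), whose product Bral1 binds hyaluronan at nodes of Ranvier, the gaps between myelin segments. It was at 17.9, 16.7 and 21.2 CPM in KO and at 11.1, 13.3 and 16.2 CPM in WT, from 142 to 272 fragments. Every KO library lay above every WT library, though KO replicate 2 and WT replicate 3 were close. On the log2 scale the difference was 0.47 (SE 0.15, 95% confidence interval 0.15 to 0.79), and limma-voom gave an unadjusted p of 0.00715 (adjusted p = 0.635). Over the 15 alternatives run the unadjusted p stayed between 0.00173 and 0.0422 and the adjusted p between 0.258 and 0.999. The value of 0.00173 came from limma-voom with the replicate number as a block, which was not taken as a pairing. Without that fit the lowest was 0.00234, in limma-voom without WT replicate 3.

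*Mal* (ENSMUSG00000027375.15, minus strand of chromosome 2, 127475146 to 127498615 in GRCm39) encodes a proteolipid of raft-like membrane in compact myelin. It was at 86.2, 85.9 and 89.9 CPM in KO and at 52.0, 63.1 and 94.8 CPM in WT. The KO libraries were close together and 2 of the WT libraries lay below them, while WT replicate 3 was the highest of all. The log2 difference was 0.37 (SE 0.16), with an unadjusted limma-voom p of 0.0383 (adjusted p = 0.635). Before adjustment, p was 0.0679 in edgeR and 0.214 in DESeq2, and it was above 0.05 when KO replicate 2 (0.0692), KO replicate 3 (0.0803), WT replicate 2 (0.110) or the library labelled WT replicate 1 (0.228) was left out. The log2 difference was 0.17 without the library labelled WT replicate 1 and 0.61 without WT replicate 3, the latter with an adjusted p of 0.255 in limma-voom. *Mal* lies 7.40 Mb from *Pla2g4e* on the same chromosome, and a part of that position in the result was not tested. *Ermn* and *Bcas1*, at 62.1 and 50.1 Mb, were the other members on chromosome 2.

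*Mobp* (chromosome 9, plus strand, 119978773 to 120010550 in GRCm39) had the same pattern as *Mal*. It was at 391, 392 and 401 CPM in KO and at 232, 269.5 and 458 CPM in WT. The highest KO library exceeded the lowest by 1.03-fold, whereas the WT libraries spanned 1.98-fold. The log2 difference was 0.37 (SE 0.18), for which limma-voom gave an unadjusted p of 0.0612 (adjusted p = 0.637). Single WT libraries moved this value in both directions. It was 0.66 without WT replicate 3, with an unadjusted p of 4.16e-06 and an adjusted p of 0.0788, but 0.17 without the library labelled WT replicate 1 and 0.28 without WT replicate 2, with unadjusted p of 0.328 and 0.192. With all libraries, the unadjusted p was 0.0221 with no filter beyond 1 fragment and 0.0229 with the Y-linked covariate, against 0.127 in edgeR and 0.295 in DESeq2.

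The sequences before the start sites of *Hapln2* and *Mal*, the members of lowest p-value, of *Mobp*, the abundant gene with the same library pattern, and of the precursor gene *Pdgfra*, which did not follow it, are shown for the binding motifs of the lineage factors. RefSeq windows on GRCm38.p6, a build other than that of the counts, were found for 24 of the 34 members (32 windows). Each run below holds the 250 bases before the start site, 5′ to 3′ on the strand of the gene. Capitals mark ACAAAG and AACAAT, bound by SOX proteins, CAGCTG, an E-box of the kind bound by OLIG2, and CTGGCAC and CTGGTAC, bound by MYRF, each searched on both strands. The windows are chr3:88027512-88027761 (minus strand) for *Hapln2*, chr2:127656696-127656945 (minus) for *Mal*, chr9:120149492-120149741 (plus) for *Mobp* and chr5:75152001-75152250 (plus) for *Pdgfra*.
Hapln2: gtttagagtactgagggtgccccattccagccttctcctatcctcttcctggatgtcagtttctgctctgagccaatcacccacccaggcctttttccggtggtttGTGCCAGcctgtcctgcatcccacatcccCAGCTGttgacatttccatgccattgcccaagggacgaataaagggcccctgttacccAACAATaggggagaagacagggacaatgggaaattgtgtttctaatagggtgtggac
Mal: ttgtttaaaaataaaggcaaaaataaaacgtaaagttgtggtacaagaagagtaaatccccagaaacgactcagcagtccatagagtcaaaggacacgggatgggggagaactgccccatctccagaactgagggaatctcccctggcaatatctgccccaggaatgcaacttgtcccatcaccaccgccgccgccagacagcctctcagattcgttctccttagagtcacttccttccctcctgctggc
Mobp: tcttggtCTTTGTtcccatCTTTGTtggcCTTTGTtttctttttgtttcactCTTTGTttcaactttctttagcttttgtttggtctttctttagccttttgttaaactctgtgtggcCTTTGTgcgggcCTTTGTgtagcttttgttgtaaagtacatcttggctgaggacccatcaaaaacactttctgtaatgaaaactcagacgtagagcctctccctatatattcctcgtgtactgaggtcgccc
Pdgfra: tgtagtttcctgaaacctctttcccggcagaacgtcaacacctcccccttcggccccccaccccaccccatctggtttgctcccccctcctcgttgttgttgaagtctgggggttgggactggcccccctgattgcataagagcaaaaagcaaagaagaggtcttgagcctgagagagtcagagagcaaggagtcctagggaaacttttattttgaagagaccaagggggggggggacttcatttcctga

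The *Hapln2* window held 1 match to each kind of motif, namely AACAAT among the SOX motifs, the E-box and the first of the MYRF motifs, and the *Mobp* window held 6 matches to ACAAAG, all in the reverse orientation. The *Mal* and *Pdgfra* windows held no match. ACAAAG was found in 8 of the 32 windows of members (6 genes), against 16.5% of all 32851 windows of the same length, and AACAAT in 6 of the 32 (6 genes), against 9.42%. CAGCTG, which reads the same on both strands, was found in 2 of the 32 (*Aspa* and *Hapln2*), against 4271 of the 32851 windows. CTGGCAC was found in 4 of the 32 (*Cnp*, *Hapln2* and *Mag*), against 4.19%, and CTGGTAC in 1 (*Mog*), against 1.83%. Windows of 1 gene can overlap and are not independent. A match is a description of the letters, and binding was not measured.

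Of the other genes of myelin structure, *Mbp* (ENSMUSG00000041607.18, chromosome 18, 82493271 to 82603762 in GRCm39) was at 1018, 1194 and 1235 CPM in KO and at 849, 914 and 1369 CPM in WT. The log2 difference was 0.17 (SE 0.14), with an unadjusted limma-voom p of 0.268 (adjusted p = 0.757). The WT libraries bracketed all KO libraries, and the WT SD of 283 CPM exceeded the difference of the means, 1149 against 1044 CPM. The log2 difference was 0.37 without WT replicate 3, 0.03 without the library labelled WT replicate 1 and 0.09 without WT replicate 2. *Mog*, an immunoglobulin-like protein of the outermost myelin layer, was at 16.4, 19.7 and 23.7 CPM in KO and at 11.9, 16.5 and 22.0 CPM in WT. *Mag*, an adhesion protein of the layer facing the axon, was at 59.1, 73.8 and 73.5 CPM in KO and at 59.7, 52.7 and 79.4 CPM in WT. Both overlapped between groups, with log2 fold changes of 0.26 (SE 0.19) and 0.11 (SE 0.13). For *Mog* this value was 0.48 without WT replicate 3 and 0.41 without KO replicate 1. It was 0.13 without KO replicate 3 and 0.035 without the library labelled WT replicate 1.

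*Cnp*, a phosphodiesterase of the cytoplasmic channels of myelin, was at 114, 129 and 133 CPM in KO and at 100.3, 109 and 142 CPM in WT. *Cldn11*, the claudin that forms tight junctions between myelin layers, was at 47.4, 52.8 and 55.3 CPM in KO and at 35.6, 41.3 and 54.2 CPM in WT. In both, 2 WT libraries lay below the KO range and WT replicate 3 lay within or above it. Their log2 fold changes were 0.11 (SE 0.11) and 0.26 (SE 0.13), with unadjusted limma-voom p of 0.326 and 0.0621. Without the library labelled WT replicate 1 the fold changes were 0.01 and 0.12, and without WT replicate 3 they were 0.26 and 0.43. For *Cldn11* the unadjusted p was under 0.05 with library totals alone (0.0461), no filter beyond 1 fragment (0.0455) and the Y-linked covariate (0.0157), and without KO replicate 1 (0.0264) or WT replicate 3 (0.00189), and it was highest, at 0.318, without the library labelled WT replicate 1. The remaining 8 genes of this group were *Ermn*, *Opalin*, *Tspan2*, *Pllp*, *Ppp1r14a*, *Tmem88b* and the gap junction genes *Gjb1* and *Gjc3*, and their log2 fold changes ran from -0.04 for *Pllp* to 0.17 for *Tmem88b*. *Opalin*, a transmembrane protein of mature oligodendrocytes, had the largest ratio of highest to lowest library among the 34 genes, from 5.17 to 13.98 CPM, and its groups overlapped.

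The enzymes that build myelin lipid and the metabolic genes of oligodendrocytes were divided evenly in direction. Of these 8 genes, 4 had a log2 fold change above 0 and 4 below, with a median of -0.01 and none at p under 0.05 before adjustment. *Ugt8a*, which makes the galactosylceramide typical of myelin, was at 20.1, 31.3 and 29.1 CPM in KO and at 21.6, 24.1 and 33.8 CPM in WT. Its log2 difference was 0.00, with a 95% confidence interval of -0.39 to 0.39. *Fa2h*, which hydroxylates the fatty acids of galactosylceramide, and *Gal3st1*, which turns it into sulfatide, had log2 fold changes of -0.06 and -0.06. *Aspa*, *Trf* (transferrin, the iron carrier that oligodendrocytes secrete), *Car2*, *Enpp2* (autotaxin) and *Qdpr* lay between -0.09 and 0.08. WT replicate 3 was the highest library for all 8 genes.

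Each of the lineage transcription factors overlapped between groups. *Olig1* was at 63.7, 48.2 and 55.8 CPM in KO and at 65.2, 46.6 and 58.5 CPM in WT. *Olig2*, its neighbour on chromosome 16 and the factor that specifies the lineage, was at 17.1, 17.3 and 19.4 CPM in KO and at 19.4, 14.8 and 18.9 CPM in WT. For both, WT replicate 2 was the lowest library. *Sox10*, which acts with OLIG2 at myelin genes, was at 22.8, 26.8 and 29.3 CPM in KO and at 21.6, 27.3 and 30.5 CPM in WT. *Myrf*, the factor needed for myelin gene expression in differentiated cells, was at 33.1, 33.8 and 35.5 CPM in KO and at 28.5, 32.7 and 38.8 CPM in WT. The 95% confidence intervals of these 4 genes reached at most from -0.30 (*Sox10*) to 0.29 (*Olig2*) on the log2 scale. *Nkx6-2*, a factor of maturing oligodendrocytes, was counted at 36 to 85 fragments and its interval was wider, from -0.68 to 0.69.

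The precursor genes overlapped between groups as well. *Pdgfra* (chromosome 5, 75312953 to 75358876 in GRCm39) was at 56.4, 45.4 and 46.0 CPM in KO and at 57.1, 40.9 and 52.4 CPM in WT. *Cspg4* was at 29.0, 24.2 and 25.8 CPM in KO and at 25.8, 24.1 and 28.2 CPM in WT. The log2 fold changes were -0.02 (95% confidence interval -0.28 to 0.25) and 0.02 (-0.20 to 0.24). WT replicate 2 was the lowest library for both genes, while KO replicate 1 was the highest for *Cspg4* and the library labelled WT replicate 1 for *Pdgfra*.

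Genes of the committed and newly formed stages split. *Gpr17*, a receptor that holds cells before terminal differentiation, was at 39.7, 39.4 and 42.5 CPM in KO and at 53.5, 41.1 and 36.6 CPM in WT, and it was the only member with its lowest value in WT replicate 3. *Enpp6* was at 4.12, 5.28 and 4.37 CPM in KO and at 3.45, 3.93 and 4.00 CPM in WT, from 44 to 63 fragments. Its groups did not overlap, yet the log2 difference of 0.26 (SE 0.19) had an unadjusted p of 0.2103 in limma-voom (adjusted p = 0.725). This difference was 0.16 without KO replicate 2 and 0.34 without KO replicate 1. *Bcas1*, a marker of early myelinating cells, was at 82.9, 90.1 and 94.7 CPM in KO and at 74.2, 68.5 and 112 CPM in WT, which is the pattern of the structural genes.

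The libraries at the top and at the bottom were often the same ones from member to member. WT replicate 3 was the highest library for 22 of 34 genes (64.7%), against 1976 of the 15254 genes at 1 CPM or more. The library labelled WT replicate 1 or WT replicate 2 was the lowest for 27 members (79.4%), against 40.1% of all genes. These 2 libraries were the lowest pair for 15 members (44.1%), against 12.8% of all genes. The range within WT was wider than that within KO for 29 members (85.3%), against 55.7% of all genes. The median ratio of the highest to the lowest WT library was 1.46 for the members and 1.19 for all genes, and within KO the medians were 1.20 and 1.17. These shares describe genes, which are not independent of each other, and carry no test.

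**Figure D3:**
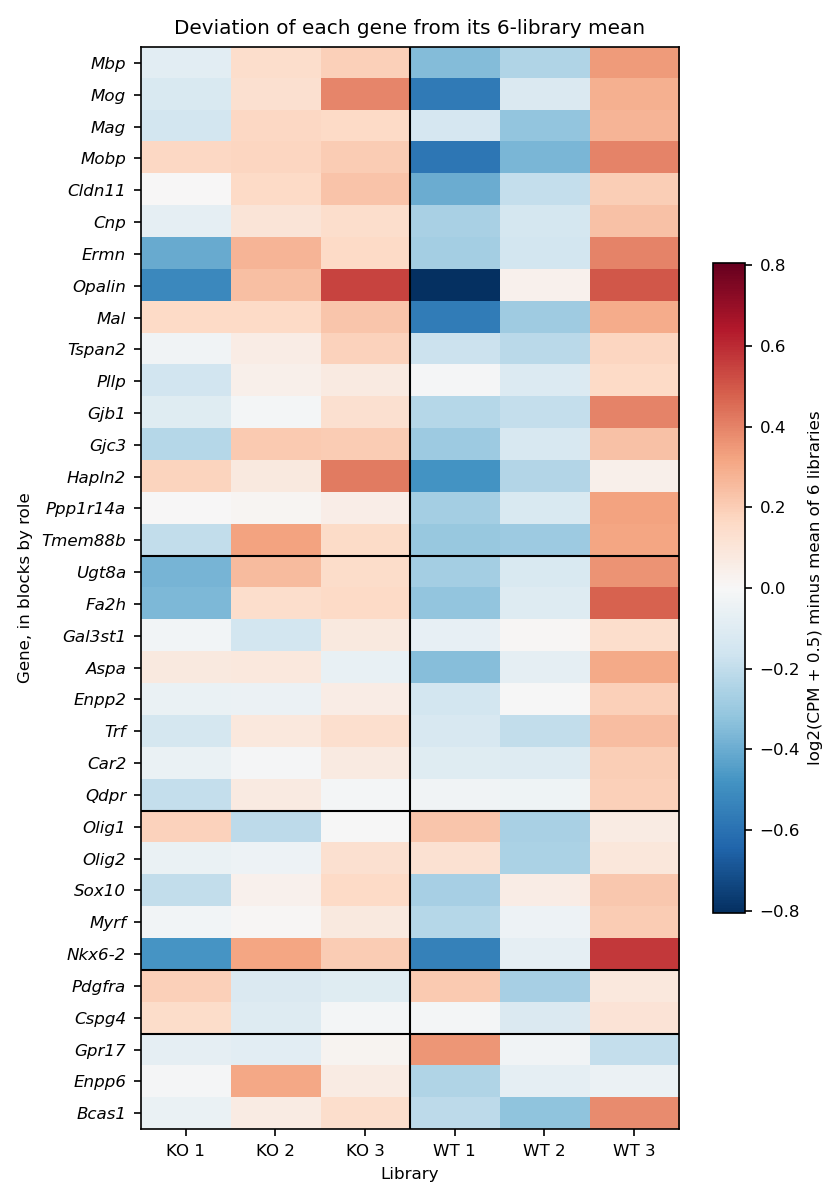
Deviation of each gene from its own mean over the 6 libraries, as log2(CPM + 0.5), for 34 genes in rows and 6 libraries in columns. Rows are in blocks for myelin structure, enzymes, transcription factors, precursor genes and genes of newly formed cells, and the WT replicate 3 column holds the highest value in 22 rows.

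The mean deviation from the 6-library average, on the log2(CPM + 0.5) scale, gave the order of the libraries for each stage. For the 16 structural genes it was -0.10, 0.14 and 0.22 in KO replicates 1 to 3 and -0.36, -0.19 and 0.29 in the libraries labelled WT replicates 1 to 3. For *Pdgfra* and *Cspg4* the KO libraries were at 0.17, -0.11 and -0.06 and the WT libraries at 0.10, -0.19 and 0.10. The libraries with *Xist*, KO replicate 1 and that labelled WT replicate 1, were below average for the structural genes and above it for the precursor genes. WT replicate 2 was below and WT replicate 3 above average for both.

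The difference between the mean log2 level of the precursor genes and that of the structural genes was therefore set against the groups. Its values were 0.07, -0.45 and -0.47 among KO libraries and 0.26, -0.19 and -0.38 among WT libraries, with a mean of -0.28 ± 0.31 (SD, n = 3) in KO and -0.10 ± 0.33 (SD, n = 3) in WT. The difference of -0.18 was smaller than either SD. Leaving out 1 library at a time moved it over a wide range: it was -0.35 without KO replicate 1, -0.31 without WT replicate 3, -0.22 without WT replicate 2, -0.09 without KO replicate 2, -0.08 without KO replicate 3 and 0.01 without the library labelled WT replicate 1. The 2 libraries with *Xist* had the highest values of their groups, and the part of sex in this order was not tested. With the 3 genes of committed and newly formed cells in place of the precursor genes, KO libraries had -0.64, -0.74 and -0.83 and WT libraries -0.37, -0.64 and -0.93. On this measure the WT libraries enclosed all KO libraries. With the 5 transcription factors in place of the precursor genes, KO libraries had -0.97, -1.08 and -1.06 and WT libraries -0.74, -0.88 and -1.01. The difference of -0.16 exceeded both SDs (0.056 in KO and 0.137 in WT), and the groups overlapped through KO replicate 1 and WT replicate 3.

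**Figure D4:**
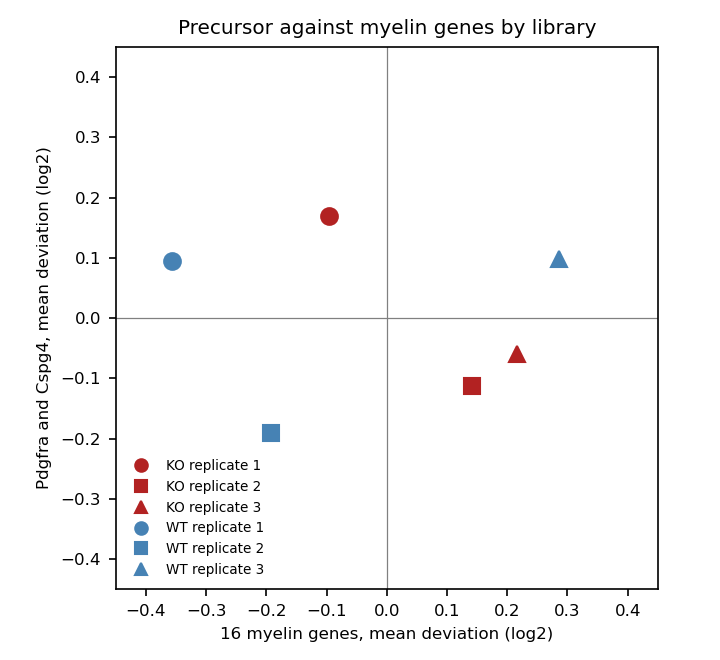
Mean deviation of *Pdgfra* and *Cspg4* (vertical axis) against that of the 16 structural myelin genes (horizontal axis), on the log2(CPM + 0.5) scale, with 1 point per library. Red points are KO and blue points WT, and the libraries labelled WT replicate 1 (-0.36) and WT replicate 3 (0.29) lie at the ends of the myelin axis.

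Other genes of the lineage, from lists of genes known for this lineage outside the 34, were read in the same fit. Of 30 further genes of mature oligodendrocytes, 20 were higher and 10 lower in KO, with a median log2 fold change of 0.06, where 51.9% of all genes were higher. Before adjustment, 4 had p under 0.05 upwards and 1 downwards, against 4.38% and 3.44% of all genes. *Carns1*, which makes carnosine, had the lowest p-value and was at 7.43, 7.71 and 6.72 CPM in KO and at 5.88, 3.93 and 3.85 CPM in WT. Its groups did not overlap, and unlike the structural genes it was lowest in WT replicate 3. The log2 difference was 0.70 (SE 0.19), with an unadjusted limma-voom p of 0.00340 (adjusted p = 0.635), and before adjustment p was at most 0.0202 in the 15 alternatives.

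*Galc*, which degrades galactosylceramide, was at 48.5, 44.3 and 46.2 CPM in KO and at 38.0, 41.0 and 42.9 CPM in WT, with no overlap (log2 fold change 0.19, SE 0.08). *Apod* and *Dock10* were highest in KO replicate 1, which was at 176 CPM for *Apod* against at most 113 CPM elsewhere and at 67.3 CPM for *Dock10* against at most 44.0 CPM. Their log2 fold changes were 0.45 (SE 0.17) and 0.44 (SE 0.19). *Tppp*, a tubulin-binding protein, was lower in every KO library, at 490.0, 590.0 and 589 CPM against 602, 669 and 633 CPM, with a log2 fold change of -0.20 (SE 0.08). In limma-voom, unadjusted p was 0.0319 for *Galc*, 0.0240 for *Apod*, 0.0340 for *Dock10* and 0.0282 for *Tppp*, and each was 0.635 once adjusted. In DESeq2, *Galc* (0.0805), *Apod* (0.114) and *Dock10* (0.129) missed 0.05 before adjustment. Without KO replicate 1 all 4 missed it, with log2 differences of 0.16 for *Galc*, 0.22 for *Apod*, 0.20 for *Dock10* and -0.11 for *Tppp*. Without WT replicate 2, *Apod* and *Dock10* were at 0.29 and *Tppp* at -0.16, and these 3 and *Galc* missed it. Some of the 4 also missed it without other libraries, *Galc* without KO replicate 3 or the library labelled WT replicate 1, *Dock10* without the latter and *Tppp* without WT replicate 3.

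Of 16 further precursor genes, 9 were higher and 7 lower in KO, and 1, lower in KO, had p under 0.05 before adjustment, against 3.44% of all genes in that direction. This was *Susd5*, at 7.16, 8.29 and 8.59 CPM in KO and at 12.5, 9.09 and 9.65 CPM in WT (log2 fold change -0.38, SE 0.16). Of 20 regulators of oligodendrocyte differentiation, 10 were higher and 10 lower, and before adjustment 1 in each direction had p under 0.05, against 4.38% of all genes upwards and 3.44% downwards. *Lingo1*, which restrains differentiation and is also made by neurons, was at 304, 332 and 370.3 CPM in KO and at 472, 403 and 331 CPM in WT (log2 fold change -0.25, SE 0.11). *Zfp24*, a zinc finger factor needed for myelination, was at 44.2, 39.9 and 41.5 CPM in KO and at 37.3, 36.9 and 36.5 CPM in WT (log2 fold change 0.18, SE 0.08). *Susd5* and *Zfp24* did not overlap between groups, *Lingo1* did, and their unadjusted limma-voom p-values were 0.0352, 0.0354 and 0.0437. Without the library labelled WT replicate 1 the log2 differences of *Susd5* and *Lingo1* were -0.24 and -0.13. Each of the 3 genes missed 0.05 in that fit and without KO replicate 1. *Zfp24* also missed it without KO replicate 3 or any WT library, in DESeq2 (0.0979) and with no filter beyond 1 fragment (0.0583), *Susd5* without KO replicate 2 and in DESeq2 (0.0568), and *Lingo1* without KO replicate 2 or WT replicate 2, with filterByExpr (0.0518) and with library totals alone (0.0586). No gene of these 3 lists passed the adjusted threshold.

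Markers of other cells were read in the same libraries. The 10 markers of striatal neurons, which lie next to the deep white matter of the frontal lobe, had mean deviations of -0.05, 0.58 and 0.01 in KO and -0.50, -0.50 and 0.46 in WT. As for the structural myelin genes, the libraries labelled WT replicates 1 and 2 were lowest and WT replicate 3 was high. The order within KO differed. KO replicate 2 was the highest library for the striatal markers (0.58) and KO replicate 3 was near average (0.01). For the structural genes these 2 libraries were at 0.14 and 0.22. All 10 had a log2 fold change above 0, 1 of them (*Penk*) with p under 0.05 before adjustment (4.38% of all genes in that direction), and their summed level was 511 to 674 CPM in KO and 419 to 628 CPM in WT. None was at 0 in any library, and the D2 dopamine receptor *Drd2* was at 2.03, 7.20 and 3.51 CPM in KO and at 1.25, 1.64 and 7.85 CPM in WT. The part of striatal tissue in the values of the myelin genes was not tested.

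The 12 neuron markers deviated by -0.05, -0.05 and -0.02 in KO and by 0.07, 0.09 and -0.04 in WT. By mean deviation, the libraries lowest in myelin genes were thus highest in these markers. Their summed level was 11096 to 12298 CPM in KO and 11949 to 13199 CPM in WT. By that sum the library labelled WT replicate 1 (12113 CPM) lay below KO replicate 3 (12298 CPM). Of the 12 markers, 10 had a log2 fold change below 0, where 51.9% of all genes were above it. Of these, 3 (*Snap25*, *Stmn2* and *Thy1*) had p under 0.05 before adjustment, against 3.44% of all genes in that direction. The 12 astrocyte markers had a different order, with the library labelled WT replicate 1 (0.23) and KO replicate 1 (0.17) highest and WT replicate 2 (-0.22) lowest, which is nearer to that of the precursor genes. All 12 had a log2 fold change above 0, with a median of 0.06 and none at p under 0.05 before adjustment. Their summed level was 4977 to 5519 CPM in KO and 4712 to 5490.0 CPM in WT, and none was at 0. Microglia and endothelial and mural markers (12 each) deviated by -0.16 to 0.16. Choroid plexus markers (8) deviated by -0.35 to 0.49 and blood genes (5) by -0.42 to 0.36. The summed level of the choroid plexus markers was lowest in KO replicate 2 (8.38 CPM) and highest in WT replicate 2 (37.2 CPM). The part of neurons, of astrocytes or of these other cells in these results was not tested.

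**Figure D5:**
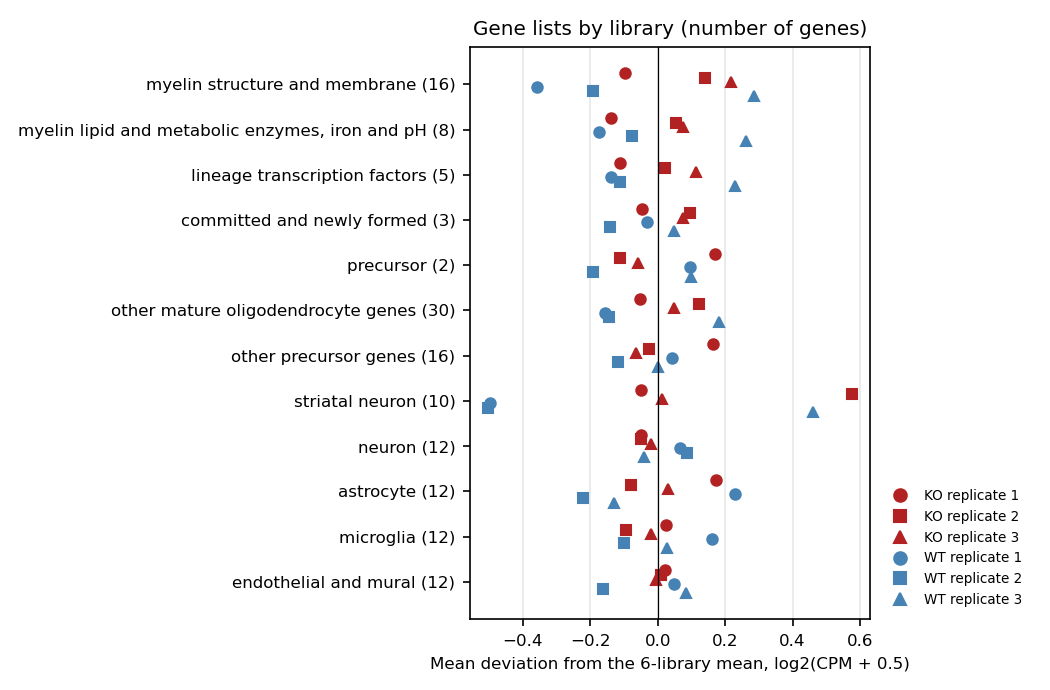
Mean deviation from the 6-library average, on the log2(CPM + 0.5) scale, for the gene groups of the oligodendrocyte lineage and for marker lists of other cells, with the number of genes in brackets and 1 point per library. The striatal markers ranged from -0.50 to 0.58 and the 16 structural myelin genes from -0.36 to 0.29. The libraries labelled WT replicates 1 and 2 were lowest in both. The highest library was KO replicate 2 for the striatal markers and WT replicate 3 for the structural genes.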

How the data were processed

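Polyadenylated RNA was measured in 6 libraries, and groups and replicate numbers were taken from the sample titles. The deposited values are raw counts of fragments per gene. Per the labels and file headers, the authors aligned reads with STAR 2.7.9a to GRCm39 and counted exons with featureCounts 1.6.0, paired-end and reverse-stranded, on GENCODE M31. An earlier build is named in the methods of the paper, and gene coordinates are those in the files. Symbols were matched by identifier (52073 of 56923 genes).

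Following the filter and tools named in the study's methods, genes with at least 6 fragments in at least 1 library (19084) were normalized with edgeR 4.0.16 and voom and compared with limma 3.58.1 under R 4.3.3. Chosen here were TMM scaling, two-sided tests without covariates, and p-values adjusted by Benjamini and Hochberg's method over the whole table and a threshold of 0.05. CPM are TMM-scaled. Means over gene lists used log2(CPM + 0.5). No p-value was computed for any score over the members. The fits were tested on simulated counts.

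Values in every library are given for 16 genes fixed by name, for members with an unadjusted p-value under 0.05 or no overlap of the groups, and genes of the 3 other lineage lists under that p-value are named. Alternatives were edgeR's quasi-likelihood test, DESeq2 1.42.0, other scalings and filters, the replicate number as a block, a covariate for Y-linked expression and leaving out each library. The members and lists were chosen with earlier results of these data known.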

Additional observations from a re-analysis of the deposited data

How the results depend on the processing

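The number of the 34 genes with an unadjusted p-value under 0.05 was 2 with limma-voom. It was 1 with edgeR's quasi-likelihood test, 1 with DESeq2, 4 with no filter beyond 1 fragment, 4 with the Y-linked covariate and 1 without KO replicate 1 and WT replicate 1, an alternative chosen after seeing the data, and every gene counted was higher in KO. Across the fits that each left out 1 library it ranged from 1 to 11. *Hapln2* was among the genes counted in each fit. The cause of these differences was not tested. DESeq2 size factors, library totals alone and filterByExpr kept the count within 1.5 times. With the replicate block the count was 5 (5.25% of all genes were called higher in KO). These were *Hapln2*, *Mal*, *Mobp*, *Cldn11* and *Mog*. In limma-voom with the block, unadjusted p was 0.0118 for *Mobp*, 0.0132 for *Cldn11* and 0.0422 for *Mog*. Same-numbered libraries deviated from their group means with correlations of 0.515, 0.152 and 0.008 across genes. A shared number was therefore not taken as a pairing, and 2 of the 3 KO libraries did not correlate best with the WT library of their own number.

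Of the 18 members followed over the alternatives, 10 changed direction under some alternative, and each had a log2 fold change of 0.11 or less in size. The log2 fold change of *Ugt8a* was -0.0047 with DESeq2 size factors and -0.0027 with filterByExpr. With library totals alone it was 0.014 for *Olig1*, 0.015 for *Sox10* and 0.011 for *Pdgfra*. When single libraries, or KO replicate 1 and WT replicate 1 together, were left out, the ranges were -0.013 to 0.28 for *Mag*, -0.13 to 0.21 for *Ugt8a*, -0.15 to 0.095 for *Olig1*, -0.10 to 0.13 for *Olig2*, -0.15 to 0.10 for *Sox10*, -0.066 to 0.16 for *Myrf*, -0.15 to 0.085 for *Pdgfra*, -0.061 to 0.078 for *Cspg4*, -0.22 to 0.079 for *Gpr17* and -0.036 to 0.32 for *Bcas1*. The least abundant members rest on few fragments, 36 to 85 per library for *Nkx6-2* and 44 to 63 for *Enpp6*.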
